A study of Homo sapiens with 80 samples.

Results

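Jurkat T cells, clone E6-1, are an established human T cell leukemia line. In the comparison described here they were exposed to 9 g for 5 min (hypg5) or kept at 1 g throughout (Ctrl). The hypg5 cells stood for 10 min at 1 g before the 5 min at 9 g, and the Ctrl cells stood for 15 min at 1 g, so that the total time was the same. The members are the 12 libraries whose titles carry these labels, 6 of hypg5 (library numbers 25 to 30) and 6 of Ctrl (library numbers 1 to 6), of 80 libraries in the series and 60 in its 9 g time course. The 9 g came from a purpose-made centrifuge that turns pipettes holding the cell suspension, Ctrl cells were kept in pipettes as well, and cells of both groups went into lysis buffer with no step in between. Libraries were made from total RNA after depletion of ribosomal RNA, with a directional kit, and were sequenced from both ends. There is 1 cell line in the comparison, and no label says that the 6 libraries of a group came from separate cultures, so p-values measure the spread between these libraries, which may be technical.

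Hypergravity loads a suspended lymphocyte from outside, and lymphocytes are known to respond to mechanical load through ion channels, the cytoskeleton and the nucleus. Within minutes, an RNA pool can change through new transcription and through RNA decay, and short-lived noncoding RNAs and transcripts of early response genes turn over fastest. The mitochondrial genome is copied into long RNAs from both of its strands, outside the nucleus, and is regulated apart from nuclear genes.

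Total counts ran from 27314458 to 36083081 per library in Ctrl and from 29577786 to 38434879 in hypg5, and no pair of libraries of a group agreed within counting noise. The label of the cells was checked against 11 T cell markers, all of which were tested, and their summed level was 4284 to 4543 CPM (counts of a gene divided by the total of the library and multiplied by 1000000) in Ctrl and 4074 to 4491 CPM in hypg5. Of 16 markers of other blood lineages, 14 were below 1 CPM in every library and 3 had no count. The others were CD79A, a signalling chain of the B cell receptor, at 55.3 to 64.5 CPM, and CD34, a marker of blood progenitors, at 2.13 to 3.41 CPM in the 12 libraries. In such bulk samples, fewer cells of a kind and less RNA per cell cannot be told apart.

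Of 16284 genes tested with the quasi-likelihood test of edgeR, 6.02% were called at a Benjamini-Hochberg adjusted p under 0.05, with 4.33% upregulated (705 genes) and 1.69% downregulated (276 genes). The called changes were small. Their median size was 0.32 on the log2 scale, 17 genes exceeded 1, and the median over all genes tested was −0.01. Upregulated genes had a median exon GC content of 56.1% and downregulated genes 43.5%, with 49.2% over all genes tested. In each library, the slope of log2 CPM against GC content, relative to the mean of the 12 libraries, was therefore measured. It was lowest in Ctrl at −0.17 (library 3), had a median of −0.03 and was highest at 0.03 log2 units per 10% GC, and in hypg5 it ran from −0.15 (library 25) through a median of 0.05 to 0.24 (library 29). The groups overlapped, and the difference between their means of 0.09 did not pass the two-sided exact permutation test (p = 0.156 over all splits into 6 and 6).

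A second fit removed each library's own curve of counts against GC content. It called 15.6% of 16075 genes, with 5.08% upregulated (817 genes) and 10.6% downregulated (1697 genes), so the share of upregulated genes among the called genes turned from 71.9% to 32.5%. This split moved with the scaling. It was 44.6% when the median log2 fold change of all genes was set to 0, and 45.0% when libraries were scaled by total counts only. Log2 fold changes had a median standard error of 0.093 without and 0.077 with the correction, and the median size of a called change in the corrected fit was 0.18. No gene was called in opposite directions by the fits. Both fits called 500 genes upregulated, which is 70.9% of the genes upregulated without and 61.2% of those upregulated with the correction. Both called 188 genes downregulated, 68.1% of the genes downregulated without and 11.1% of those downregulated with the correction. These fits are made from the same counts, so their overlap is not independent evidence.

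**Figure D1:**
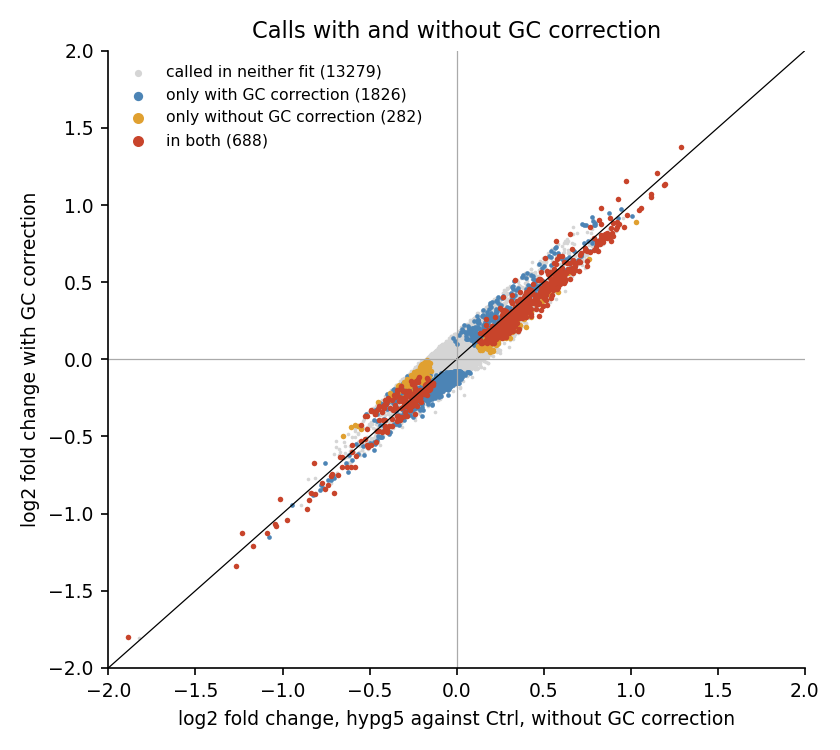
Log2 fold change of hypg5 against Ctrl for each of 16075 genes without (x axis) and with (y axis) the GC correction, with genes coloured by the fits that called them. Genes called by both fits (688) lie away from 0 on both axes, 1826 genes were called with the correction only and 282 without it only, and 1 gene lies outside the axes.

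With genes in 10 equal bins of GC content, the share of upregulated genes without the correction was 0.37% in the lowest bin and 10.4% in the highest, and that of downregulated genes fell from 2.55% to 0.37%. The median log2 fold change went from −0.17 in the lowest to 0.08 in the highest bin. With the correction, these medians lay between −0.04 and −0.01 in all 10 bins. Upregulated genes then made up 2.61% of the lowest and 5.85% of the highest bin. The downregulated share of the corrected fit was 2.55% in the lowest and 20.3% in the highest bin, so the GC-rich genes held most of the downregulated calls. The 10.6% of all genes, set beside corrected shares of gene lists below, takes no account of the GC content of a list.

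**Figure D2:**
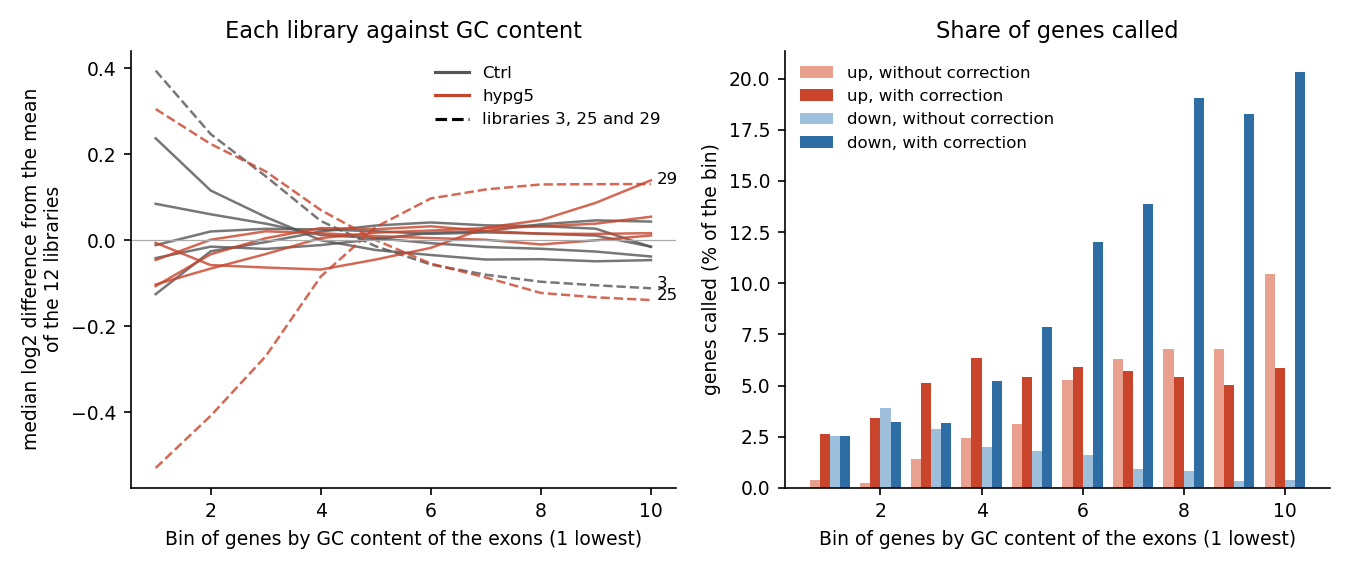
Left, the deviation of each library from the mean of the 12 libraries (log2 units) in 10 bins of gene GC content, with libraries 3, 25 and 29 dashed. Right, the share of genes called upregulated or downregulated (percent) in each bin, with and without the GC correction. The curves of the groups cross, and the upregulated share without correction rises from 0.37% to 10.4%.

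Leaving out each library in turn gave 390 to 1008 upregulated and 110 to 643 downregulated genes without the correction, with the fewest without Ctrl library 6 and the most without hypg5 library 25. With the correction the counts were 521 to 1018 upregulated (fewest without Ctrl library 4, most without hypg5 library 29) and 1166 to 1730 downregulated.

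Most protein-coding genes of the mitochondrial genome were upregulated. They encode core subunits of the respiratory chain and of ATP synthase. The share of all counts that fell on this genome was 1.33%, 1.50% and 1.60% (lowest, median and highest library) in Ctrl and 1.76%, 2.11% and 2.27% in hypg5, so the groups did not overlap. Of the 15 listed protein-coding and ribosomal RNA genes, 11 were upregulated without and 13 with the GC correction, beside 4.33% and 5.08% of all genes, and none was downregulated. Their median log2 fold change was 0.47 without and 0.52 with the correction, beside −0.01 and −0.02 over all genes.

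MT-ND6 (MT:14149-14673 in GRCh38, minus strand) encodes a subunit of respiratory complex I and is the only protein-coding gene on the minus strand of this genome. Among genes of at least 10 CPM called by both fits without overlap between groups, its increase was the largest. For the largest changes named here and below, a lack of overlap was a condition of the choice and is not a further result. The level of MT-ND6 was 55.2, 87.9 and 95.5 CPM in Ctrl and 179, 199 and 234 CPM in hypg5. Every hypg5 library lay above every Ctrl library, as for 4.89% of all genes tested (796 genes), while 1.19% (193 genes) lay wholly below. The log2 fold change was 1.29 ± 0.11 (SE, n = 6 per group, edgeR adjusted p = 9.49e-05), and 1.37 ± 0.12 (adjusted p = 1.45e-05) with the correction. On the opposite strand, MT-ND4L, another complex I subunit, had 167, 185 and 211 CPM in Ctrl and 267, 295 and 323 CPM in hypg5. These groups did not overlap either (log2 fold change 0.61 ± 0.06, adjusted p = 0.000145).

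The other complex I genes MT-ND1 (log2 fold change 0.58), MT-ND2 (0.57), MT-ND5 (0.54), MT-ND4 (0.48) and MT-ND3 (0.27) were upregulated, as were the ATP synthase genes MT-ATP8 (0.51) and MT-ATP6 (0.47), the cytochrome b gene MT-CYB (0.42) and the cytochrome c oxidase gene MT-CO1 (0.43). The remaining oxidase genes MT-CO2 and MT-CO3, with log2 fold changes of 0.24 (adjusted p = 0.0805) and 0.23 (adjusted p = 0.0582), passed the test only with the GC correction. The call of MT-ND3 was lost without hypg5 library 27 (adjusted p = 0.0554) or 28 (0.0523), and the corrected call of MT-CO2 without Ctrl library 1 (0.0512) or hypg5 library 28 (0.0508). The ribosomal RNAs MT-RNR1 and MT-RNR2 are targets of the depletion step. MT-RNR1 ran from 0.295 to 93.4 CPM within Ctrl, and neither was called, with log2 fold changes of −1.83 for MT-RNR1 (adjusted p = 0.236) and −2.24 for MT-RNR2 (adjusted p = 0.139). Counting the transfer RNA genes too, 12 of 20 tested genes of the plus strand and 5 of 8 of the minus strand were upregulated without correction, and 1, MT-TV, was downregulated at levels below 1 CPM. In a fit that held all 60 libraries of the time course no mitochondrial gene of the list was called and MT-ND6 had an adjusted p of 0.0661, whereas 10 of 15 were called when library 75, which has no counts on this genome, was left out of that fit.

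**Figure D3:**
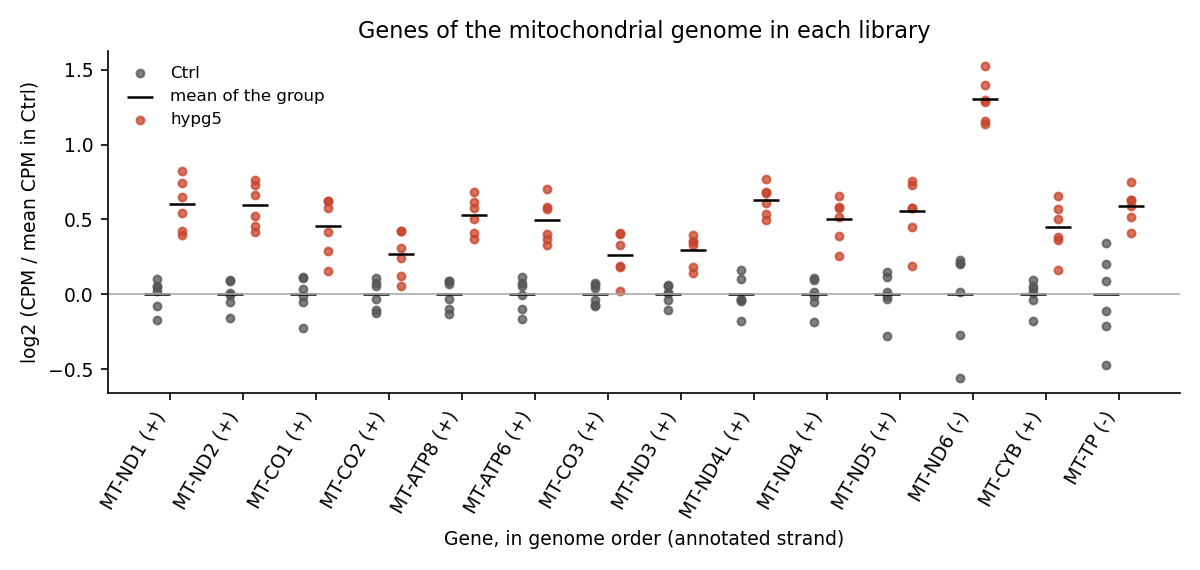
Level of each mitochondrial gene of at least 5 CPM, ribosomal RNAs left out, in each library (points, with the mean of each group as a line), as log2 of its CPM over the Ctrl mean, with genes in the order of the genome and their strand marked. The hypg5 libraries lie above the Ctrl libraries for most genes, and MT-ND6, with a log2 fold change of 1.29, lies highest.

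Host genes of microRNAs, long transcripts that hold the hairpins of microRNAs, were upregulated more often than downregulated. Of 30 tested, 8 were upregulated and none downregulated without correction, and 10 and 1 (MIR210HG) with it, beside 4.33% up and 1.69% down of all genes without and 5.08% and 10.6% with the correction. Their median log2 fold change was 0.20 without and 0.23 with the correction. The sequencing measured the host transcripts and not the mature microRNAs. Mature sequences of the hosts with the lowest adjusted p are printed below as RNA from RefSeq (GRCh38.p14), with the seed, bases 2 to 8, in capitals, because the seed sets which messenger RNAs a microRNA can bind.

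hsa-miR-142-5p: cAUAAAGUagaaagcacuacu
hsa-miR-142-3p: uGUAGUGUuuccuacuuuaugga
hsa-let-7a-5p: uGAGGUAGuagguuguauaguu
hsa-let-7b-5p: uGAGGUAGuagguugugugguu
hsa-miR-17-5p: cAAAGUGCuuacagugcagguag
hsa-miR-20a-5p: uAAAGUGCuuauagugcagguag
hsa-miR-19a-3p: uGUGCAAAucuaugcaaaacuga
hsa-miR-19b-3p: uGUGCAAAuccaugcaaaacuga

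Of these, let-7a and let-7b share the seed GAGGUAG, miR-17 and miR-20a share AAAGUGC, and miR-19a and miR-19b share GUGCAAA.

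MIR142HG (chr17:58330884-58332508, minus strand) carries miR-142, a microRNA of blood cells. It had 26.3, 33.4 and 36.7 CPM in Ctrl and 42.6, 49.4 and 58.9 CPM in hypg5, with no overlap (log2 fold change 0.59 ± 0.08, adjusted p = 0.00124). MIRLET7BHG (chr22:46053869-46113928, plus strand), host of let-7a and let-7b, microRNAs of differentiated cells, had 14.5, 16.2 and 19.3 CPM in Ctrl and 21.6, 24.3 and 27.7 CPM in hypg5. Again no hypg5 library reached down to a Ctrl library (log2 fold change 0.55 ± 0.08, adjusted p = 0.00173). MIR17HG (chr13:91347820-91354579, plus strand), host of the miR-17-92 cluster that promotes lymphocyte proliferation, had 28.1, 30.2 and 33.3 CPM in Ctrl and 36.2, 38.2 and 42.8 CPM in hypg5. The log2 fold change was 0.33 ± 0.06 (adjusted p = 0.00475) and 0.51 ± 0.12 (adjusted p = 0.0126) with the correction, which raised it because this gene has a GC content of 37.1%. The 5 other upregulated hosts were MIR3677HG (log2 fold change 0.55), MIR223HG (0.52), MIR9-3HG (0.41), MIR23AHG (0.33) and MIR29B2CHG (0.32), and all kept their call with the correction. The call of MIR23AHG was lost without Ctrl library 6 (adjusted p = 0.0647) or hypg5 library 28 (0.056). Its corrected call was lost without Ctrl library 6 (0.0526) or hypg5 library 30 (0.0504), and that of MIR9-3HG without Ctrl library 1, 5 or 6 or hypg5 library 30 (0.0507 to 0.0685).

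Several classes of long noncoding RNA genes had medians above 0. The median log2 fold change was 0.16 for 812 tested genes annotated as lincRNA (54 upregulated and 1 downregulated), 0.15 for 1097 antisense genes (63 and 12) and 0.21 for 247 genes that lie inside an intron on the same strand (13 and 0). It was −0.03 for 12217 protein-coding genes (489 and 223) and −0.15 for 472 processed pseudogenes (4 and 21), which share reads with their parent genes and are uncertain. With the GC correction these medians were 0.16, 0.12, 0.21, −0.04 and −0.18. Without the correction, 4.33% of all genes were upregulated and 1.69% downregulated, and the counts of these types were not tested. Genes inside an intron on the same strand were not told apart from unspliced RNA of the gene around them. Among listed genes, 10 of 223 named LINC were upregulated and none was downregulated (median 0.11), and 28 of 499 named antisense genes were upregulated and 6 downregulated (median 0.12). The upregulated shares of 4.48% and 5.61% lie near the 4.33% of all genes. With the correction, 5.41% and 6.02% were upregulated, beside 5.08% of all genes, and 1.35% and 2.41% downregulated, beside 10.6%. The antisense gene MIF-AS1 was downregulated and is described with the small nuclear RNAs.

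Of 58 tested histone modifying and chromatin remodelling genes, 11 (19.0%) were upregulated and none was downregulated without the correction, beside 4.33% and 1.69% of all genes. KMT2D (chr12:49018978-49060794, minus strand), a methyltransferase that marks enhancers, had 301, 338 and 378 CPM in Ctrl and 453, 499 and 599 CPM in hypg5, with no overlap (log2 fold change 0.55 ± 0.06, adjusted p = 0.000145). SETD1B, a methyltransferase that marks active promoters, had 58.2, 71.5 and 79.2 CPM in Ctrl and 96.1, 103 and 114 CPM in hypg5, likewise without overlap (log2 fold change 0.53 ± 0.05, adjusted p = 0.000145). ARID1A, a DNA-binding subunit of the SWI/SNF remodelling complex, had 292, 336 and 362 CPM in Ctrl and 394, 438 and 487 CPM in hypg5 (log2 fold change 0.38 ± 0.05, adjusted p = 0.000745).

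Among the other upregulated genes of the list were the histone demethylase gene KDM6B (log2 fold change 0.37), the methyltransferase genes KMT2B (0.33), SETD1A (0.29) and DOT1L (0.15), the remodeller genes SRCAP (0.25) and EP400 (0.23), and the acetyltransferase gene CREBBP (0.22). The median of the 58 genes was nevertheless 0.01, with 33 of them above 0. With the correction 10 genes were upregulated and 5 downregulated, beside 5.08% and 10.6% of all genes, CREBBP (adjusted p = 0.157) and DOT1L (adjusted p = 0.55) were no longer called, and the median was 0.02. Without the correction, the call of CREBBP was also lost on leaving out any of 8 of the 12 libraries (adjusted p from 0.0526 to 0.0862) and that of DOT1L any of 9 (0.0618 to 0.0913). The corrected call was lost without any 1 of 9 libraries for EP400 (0.0545 to 0.11), of 5 for KMT2B (0.0504 to 0.0649) and of 3 for SRCAP (0.0599 to 0.0609), and the corrected count of upregulated genes ran from 5 to 16 over the alternatives. These medians ran from −0.01 to 0.04 over the alternatives, so their sign turned.

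Of 402 tested genes named ZNF, which encode zinc finger proteins and include many repressors of transcription, 26 were upregulated and 1 (ZNF207) was downregulated without, and 45 and 9 with the correction. Upregulated members made up 6.47% without and 11.2% with the correction, beside 4.33% and 5.08% of all genes, and downregulated members 0.249% and 2.24%, beside 1.69% and 10.6%. Their median was 0.03 and 0.05, and without the correction it ran from −0.0011 to 0.07 over the alternatives. ZNF587B had 19.8, 23.3 and 26.4 CPM in Ctrl and 32.6, 34.2 and 39.6 CPM in hypg5. The groups did not overlap (log2 fold change 0.55 ± 0.06, adjusted p = 0.000323, and 0.56 with the correction).

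On the downward side, PFKFB3 and SLC2A1 were downregulated by both fits. PFKFB3 (chr10:6144934-6254644, plus strand) makes fructose 2,6-bisphosphate, the activator of glycolytic phosphofructokinase. Its level was 89.7, 92.3 and 96.6 CPM in Ctrl and 70.5, 72.8 and 76.4 CPM in hypg5. The groups did not overlap, and the log2 fold change was −0.37 ± 0.04 (adjusted p = 0.000636), and −0.43 ± 0.03 (adjusted p = 6.13e-06) with the correction. SLC2A1, the glucose transporter of the plasma membrane, had 147, 157 and 164 CPM in Ctrl and 116, 126 and 138 CPM in hypg5, again without overlap (log2 fold change −0.34 ± 0.06, adjusted p = 0.0042, and −0.40 with the correction). ANKRD37, a target of hypoxia inducible factor, had 6.11, 6.28 and 7.20 CPM in Ctrl and 3.77, 4.00 and 4.95 CPM in hypg5 (log2 fold change −0.66 ± 0.09, adjusted p = 0.00102).

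All 37 tested genes of the hypoxia inducible factor axis and glycolysis had a median of −0.07, with 5 downregulated and 1 upregulated, and −0.10 with 17 downregulated and 1 upregulated after the correction. The other downregulated genes were the hexokinase gene HK2 (log2 fold change −0.21, adjusted p = 0.0202) and the peptide hormone gene ADM (−0.74, adjusted p = 0.0399, below 1 CPM). The upregulated gene was HIF1AN, an inhibitor of the factor, at 0.13. The downregulated share was 13.5% without and 45.9% with the correction, beside 1.69% and 10.6% of all genes. Leaving out single libraries ended the uncorrected calls of ADM (11 of 12 libraries, adjusted p from 0.0517 to 0.0849), HIF1AN (9 of 12, 0.0506 to 0.0776) and HK2 (Ctrl 4, 0.0506, or Ctrl 6, 0.0533). GAPDH, the glycolytic enzyme often used as a reference, had a log2 fold change of −0.08 (adjusted p = 0.571) without and −0.16 (adjusted p = 0.0092) with the correction. PFKFB3 averaged 66.5 ± 2.16 CPM (SD, n = 6) in hypg20s, 69.6 ± 2.38 in hypg75s, 74.1 ± 2.65 in hypg3, 76.3 ± 2.09 in hypg7, 81.1 ± 1.84 in hypg9, 107.4 ± 20.0 in hypg15 and 97.4 ± 3.99 in hypg60, beside 92.3 ± 2.57 in Ctrl and 102.7 ± 3.04 in Ctrl60, the control of 60 min. The descriptions of the Ctrl60 libraries, unlike those of the others, name an addition of HEPES, a pH buffer, so that time and buffer cannot be told apart between Ctrl60 and Ctrl. The hypg15 group holds library 75, which lacks counts on several chromosomes. CPM of that library are relative to an incomplete total, so the hypg15 mean is uncertain. The groups up to 15 min share Ctrl as their control. The means from 20 s to 9 min lie below that of Ctrl, and the mean at 5 min lies within their range.

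Since ANKRD37 is a target of hypoxia inducible factor, the promoters of ANKRD37, PFKFB3 and SLC2A1 were read for the core of the hypoxia response element, ACGTG on either strand (CACGT on the other), in the 250 bases before the start site. The sequences of RefSeq (GRCh38.p14, 5′ to 3′ on the strand of the gene) that hold it are shown with the motif in capitals, for ANKRD37 (chr4:185396591-185396840, plus strand) and for the second listed start of PFKFB3 (chr10:6202682-6202931, plus strand).

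ANKRD37: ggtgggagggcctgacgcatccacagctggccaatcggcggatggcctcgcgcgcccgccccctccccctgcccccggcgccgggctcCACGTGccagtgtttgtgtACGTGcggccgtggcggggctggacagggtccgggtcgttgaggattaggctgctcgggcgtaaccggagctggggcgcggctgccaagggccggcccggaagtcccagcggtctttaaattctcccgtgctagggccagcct
PFKFB3: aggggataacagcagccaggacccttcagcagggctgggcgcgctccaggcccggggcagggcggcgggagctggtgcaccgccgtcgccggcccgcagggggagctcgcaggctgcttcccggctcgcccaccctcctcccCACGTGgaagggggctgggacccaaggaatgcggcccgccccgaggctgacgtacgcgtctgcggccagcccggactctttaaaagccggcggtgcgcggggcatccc

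The run CACGTG reads the same on both strands and was counted on each, which gives 3 matches for ANKRD37 and 2 for PFKFB3. The windows of SLC2A1 and of the first start of PFKFB3 hold none, and 6501 of 35116 promoters (18.5%) hold at least 1, so a match describes the letters and not a bound site.

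Several small nuclear RNAs of the spliceosome were downregulated. RNU5A-1, the largest decrease among genes of at least 10 CPM called by both fits without overlap between groups, is a copy of the U5 RNA. RNU5A-1 had 17.2, 20.1 and 22.4 CPM in Ctrl and 7.94, 9.77 and 12.9 CPM in hypg5, without overlap (log2 fold change −1.02 ± 0.12, adjusted p = 0.000374, and −0.90 with the correction). RNU4-1 and RNU4-2, near-identical copies of the U4 RNA that can split reads between them, both fell by 0.41 on the log2 scale (adjusted p = 0.00102 and 0.0031). RNU6ATAC, of the minor spliceosome, had a log2 fold change of −0.72 (adjusted p = 0.00221) and RNVU1-31, a U1 variant, one of −0.51 (adjusted p = 0.00348). Of 20 listed 7SL, 7SK and spliceosomal RNAs, which do not include RNU5A-1, 4 were downregulated (20.0%, beside 1.69% of all genes) and none upregulated, and the median was −0.08. With the correction 5 were downregulated (25.0%, beside 10.6%) and the median was −0.12. In the fit of all 60 libraries RNU4-1 (adjusted p = 0.272), RNU4-2 (0.288), RNVU1-31 (0.166) and RNU6ATAC (0.185) were not called. Without library 75, which has no mitochondrial counts, RNU6ATAC was called in that fit, and RNU4-1 (adjusted p = 0.177), RNU4-2 (0.187) and RNVU1-31 (0.0938) were not.

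Levels of several named genes, among them RNU5A-1, RNU4-1, RNU4-2, RNU6ATAC, MIF-AS1, RN7SKP203, SNHG5 and MIRLET7A1HG, also differed between the ranges of library numbers. RNU5A-1 averaged 19.8 ± 1.96 CPM in Ctrl, 19.4 ± 2.16 in Ctrl60, 16.8 ± 4.36 in hypg20s and 14.4 ± 2.52 in hypg75s (numbers 1 to 24), and 9.97 ± 1.84 in hypg5, 5.86 ± 2.32 in hypg7, 4.92 ± 1.43 in hypg9 and 6.64 ± 1.25 in hypg60 (numbers 25 to 48), with 14.9 ± 4.64 in hypg3 and 13.8 ± 2.91 in hypg15 (numbers 69 to 80). MIF-AS1, antisense to a cytokine gene, had 10.3, 10.7 and 11.2 CPM in Ctrl and 6.22, 7.32 and 8.69 CPM in hypg5 (log2 fold change −0.59 ± 0.08, adjusted p = 0.001). It stayed between 6.15 and 8.69 CPM in all libraries numbered 25 to 48 and between 8.70 and 12.6 CPM in those numbered 1 to 24. What the numbers mark is not given in the sources used here. The means of hypg15 include library 75, which lacks counts on several chromosomes. Mean levels of RNU4-1 ran from 106 to 140 CPM in the 4 groups numbered 1 to 24, from 59.8 to 106 CPM in the 4 numbered 25 to 48, and were 122.5 CPM in hypg3 and 141 CPM in hypg15. RNU4-2 gave 113 to 152, 63.3 to 113, 129 and 150.4 CPM in the same order, and RNU6ATAC 6.20 to 7.91, 2.30 to 4.87, 5.86 and 5.34 CPM. RN7SKP203 gave 9.78 to 12.3, 6.34 to 9.49, 12.7 and 14.7 CPM. SNHG5 gave 13.8 to 14.5, 18.4 to 19.8, 13.1 and 13.1 CPM, and MIRLET7A1HG 10.7 to 12.5, 13.8 to 17.3, 9.39 and 10.3 CPM. For RNU4-1, RNU4-2 and RN7SKP203, hypg75s and hypg5 had like means. MIF-AS1 averaged 10.8 ± 0.35 CPM in Ctrl, 10.7 ± 1.22 in hypg75s and 7.33 ± 0.88 in hypg5, with 12.2 ± 3.00 in hypg3 and 11.4 ± 1.90 in hypg15. KMT2D averaged 340.3 ± 31.5, 539 ± 61.4 and 506 ± 52.8 CPM in Ctrl, hypg75s and hypg5, and MT-ND6 81.3 ± 16.6, 183 ± 32.2 and 201 ± 20.5 CPM. Between Ctrl and hypg5, the number range and the exposure cannot be told apart, and the part of the range in these values was not tested.

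Genes of the translation and energy machinery that are encoded in the nucleus had medians slightly below 0. Of 86 cytosolic ribosomal protein genes, 8 were downregulated and none upregulated without, and 45 and none with the correction, and the median was −0.12 and −0.15. Of all genes, 1.69% were downregulated without and 10.6% with the correction. RPL31, with 486 to 546 CPM in Ctrl and 383 to 451 CPM in hypg5, had a log2 fold change of −0.25 (adjusted p = 0.00684), RPL24 one of −0.23 (adjusted p = 0.0115) and RPL6 one of −0.30 (adjusted p = 0.0133). The share of all counts on these genes was 6.55% to 7.23% in Ctrl and 6.02% to 6.88% in hypg5, so the groups overlapped. Of 77 mitochondrial ribosomal protein genes, 9 were downregulated without (median −0.12), and 36 with the correction against 1 upregulated (median −0.13), led by MRPL44 (log2 fold change −0.30, adjusted p = 0.00466).

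Of 81 nuclear genes of oxidative phosphorylation, 5 were downregulated without correction and 32 with it, none was upregulated, and the median was −0.12 and −0.11. The 5 were the complex I gene NDUFA12 (log2 fold change −0.26, adjusted p = 0.0118) and the ATP synthase genes ATP5PF (−0.27), ATP5MK (−0.21), ATP5ME (−0.20) and ATP5PB (−0.20). The calls of ATP5PF and ATP5MK were lost without Ctrl library 4 (adjusted p = 0.0506 and 0.0566) or 6 (0.0536 and 0.062), that of ATP5ME without any of 5 libraries (0.0508 to 0.0804) and that of ATP5PB without any of 9 (0.0526 to 0.109). For 47 proteasome genes, 4 were downregulated and 1 upregulated (median −0.11), and 14 and 1 with the correction. Read against the 1.69% and 10.6% of all genes, the shares of downregulated members were higher in all 4 lists, and they were not tested. These counts moved with the fit. Over the alternatives to the uncorrected fit, 2 to 75 cytosolic and 2 to 57 mitochondrial ribosomal protein genes, 1 to 58 oxidative phosphorylation genes and 1 to 36 proteasome genes were downregulated, with the most in each list under 3 surrogate variables. Without Ctrl library 6 alone, the counts were 3, 2, 1 and 1, and with the mitochondrial genome left out of the library totals 7, 8, 4 and 4. The medians of these 4 lists were below 0, and those of the mitochondrial genome, the microRNA hosts and the LINC and antisense genes above 0, under every alternative run.

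**Figure D4:**
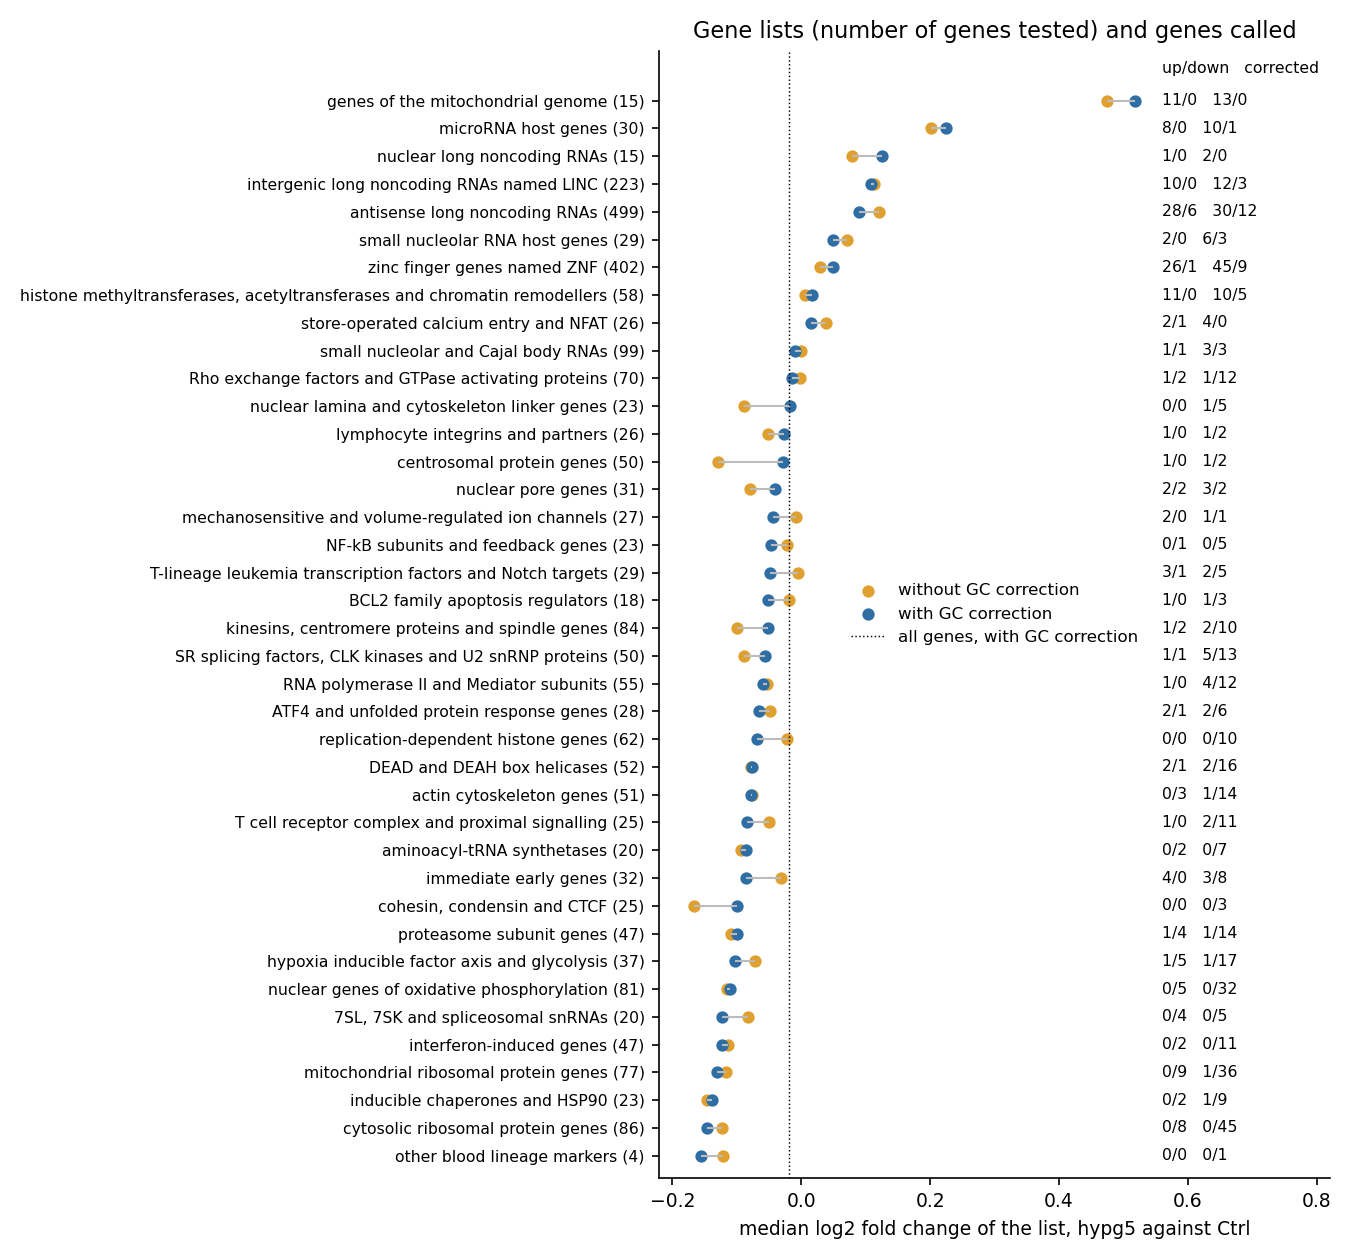
Median log2 fold change of hypg5 against Ctrl for each gene list without and with the GC correction, with the numbers of members called upregulated and downregulated and a dotted line at the median of all genes with the correction. The mitochondrial genome (0.47 and 0.52) and the microRNA hosts (0.20 and 0.23) lie farthest to the right, and cohesin and condensin genes lie at −0.17 without and −0.10 with the correction.

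Other genes among the largest decreases called by both fits were IFI16, a DNA sensor of the interferon response (log2 fold change −0.47, adjusted p = 0.0193), GTF2A2, a subunit of a general transcription factor (−0.38, adjusted p = 0.00221), SNW1, a splicing cofactor (−0.36, adjusted p = 0.0109), ZCRB1 (−0.53, adjusted p = 0.0068) and ABRACL. ABRACL averaged 37.9 ± 2.65 CPM (SD, n = 6) in Ctrl and 29.9 ± 3.79 CPM in hypg5. IFI16 was no longer called without Ctrl library 3 (adjusted p = 0.0511). RN7SKP203, a pseudogene of 7SK RNA that can share reads with it, had a log2 fold change of −0.40. It is among the genes above whose levels differed between the ranges of library numbers. Of 47 interferon-induced genes 2 were downregulated, IFI16 and GBP1 (−0.43), with a median of −0.11, and 11 with the correction. These are 4.26% and 23.4% of the list, beside 1.69% and 10.6% of all genes downregulated, and none was upregulated. GBP1 was not called without any 1 of 7 libraries (adjusted p from 0.0509 to 0.0679). Among the increases, CHAC1, a glutathione-degrading enzyme induced by ATF4, had 3.55, 4.10 and 4.60 CPM in Ctrl and 6.14, 6.41 and 6.74 CPM in hypg5 without overlap (log2 fold change 0.62 ± 0.08, adjusted p = 0.00103). Of 28 ATF4 and unfolded protein response genes, 2 were upregulated (7.14%, beside 4.33% of all genes) and 1 downregulated (3.57%, beside 1.69%). With the correction 2 were upregulated (7.14%, beside 5.08%) and 6 downregulated (21.4%, beside 10.6%). The median was −0.05 without and −0.06 with the correction.

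Genes by which T cells sense receptor signals were seldom called without the correction and often called as downregulated with it. Of 25 genes of the T cell receptor complex and its proximal signalling, LAT alone was upregulated without the correction (log2 fold change 0.39, adjusted p = 0.0343), and it was not called without any 1 of 7 libraries (Ctrl 3, 4, 5 or 6, or hypg5 27, 28 or 30), with adjusted p from 0.0523 to 0.0761. With the correction 11 were downregulated, including LCK at −0.15 and CD3D at −0.17, and 2 were upregulated. The downregulated share with the correction was 44.0%, beside 10.6% of all genes, and the upregulated share was 4.00% without and 8.00% with it, beside 4.33% and 5.08%. The median GC content of the list was 54.0%. Of all genes with a GC content of 52.0% to 55.0%, 13.9% were downregulated with the correction. Of 27 mechanosensitive and volume-regulated channel genes, PKD1 (0.33, adjusted p = 0.00141) and PIEZO1 (0.20, adjusted p = 0.00967) were upregulated, 7.41% of the list beside 4.33% of all genes, and with the correction 1 was upregulated and 1 downregulated. PIEZO1, the mechanically gated cation channel, had 380.5 to 433 CPM in Ctrl and 462 to 522 CPM in hypg5, and its call was lost with the correction (log2 fold change 0.11, adjusted p = 0.101). PKD1 was called with the correction, but not without any 1 of 8 libraries (corrected adjusted p from 0.0632 to 0.105).

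Of 32 immediate early genes, 4 were upregulated (12.5%, beside 4.33% of all genes) and none downregulated, namely the AP-1 subunit genes JUND (log2 fold change 0.36) and JUN (0.31), the transcription factor gene KLF2 (0.30) and the survival gene MCL1 (0.18). The uncorrected call of KLF2 was lost without any 1 of 10 of the 12 libraries (adjusted p from 0.0558 to 0.104) and that of MCL1 without any 1 of 9 (0.056 to 0.0812). With the correction KLF2 was not called (adjusted p = 0.0685), and 3 were upregulated (9.38%, beside 5.08% of all genes) and 8 downregulated (25.0%, beside 10.6%). The median GC content of the list was 55.2%. Of all genes with a GC content of 55.0% to 58.0%, 19.0% were downregulated with the correction. MCL1 kept its corrected call under every alternative run, whereas that of JUN was lost without any 1 of 9 libraries (0.0566 to 0.0988). Of 51 actin cytoskeleton genes 3 were downregulated (5.88%, beside 1.69% of all genes) and none upregulated. The 3 were the actin-binding TMSB4X (−0.18), the myosin light chain gene MYL12A (−0.23) and ARPC5 of the Arp2/3 complex (−0.23), which was not called with the correction (adjusted p = 0.618). MYL12A was no longer called without any 1 of 8 libraries (adjusted p from 0.0541 to 0.104), and TMSB4X without Ctrl library 6 (0.0511) or hypg5 library 27 (0.0571). With the correction 14 actin genes were downregulated (27.5%, beside 10.6%) and 1 was upregulated. No gene was called among 23 of the nuclear lamina and its linkers without the correction, and 1 was upregulated (4.35%, beside 5.08% of all genes) and 5 were downregulated (21.7%, beside 10.6%) with it. Of 29 leukemia transcription factors and Notch pathway genes, the Notch cofactor gene MAML1 (0.29), NOTCH3 (0.26) and NOTCH1 (0.17) were upregulated and FLI1 (−0.23) was downregulated, 10.3% up and 3.45% down beside 4.33% and 1.69% of all genes. With the correction NOTCH1 was not called (adjusted p = 0.212), and 2 genes of the list were upregulated (6.90%, beside 5.08%) and 5 downregulated (17.2%, beside 10.6%). FLI1 was no longer called without any 1 of 8 libraries (adjusted p from 0.0514 to 0.0782), and NOTCH1 without Ctrl library 6 (0.0506) or hypg5 library 27 (0.0502).

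Of 23 chaperone genes, DNAJA1 (−0.25) and AHSA1 (−0.18), both partners of heat shock proteins, were downregulated (8.70% of the list, beside 1.69% of all genes). With the correction 9 were downregulated (39.1%, beside 10.6%) and 1 was upregulated. Leaving out any 1 of 10 of the 12 libraries ended the call of DNAJA1 (adjusted p from 0.063 to 0.122) and any 1 of 8 that of AHSA1 (0.0543 to 0.105), while both kept their corrected call under every alternative run. HSP90AA1, the inducible cytosolic HSP90, had 723, 778 and 905 CPM in Ctrl and 395, 680.3 and 772 CPM in hypg5. The groups overlapped, library 29 alone lay far below the others, and the log2 fold change of −0.32 ± 0.11 did not pass the test (adjusted p = 0.103, and 0.0547 with the correction). Of 25 cohesin and condensin genes none was called without correction, although the median was −0.17. With the correction the median was −0.10 and 3 were downregulated (12.0%, near the 10.6% of all genes).

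**Figure D5:**
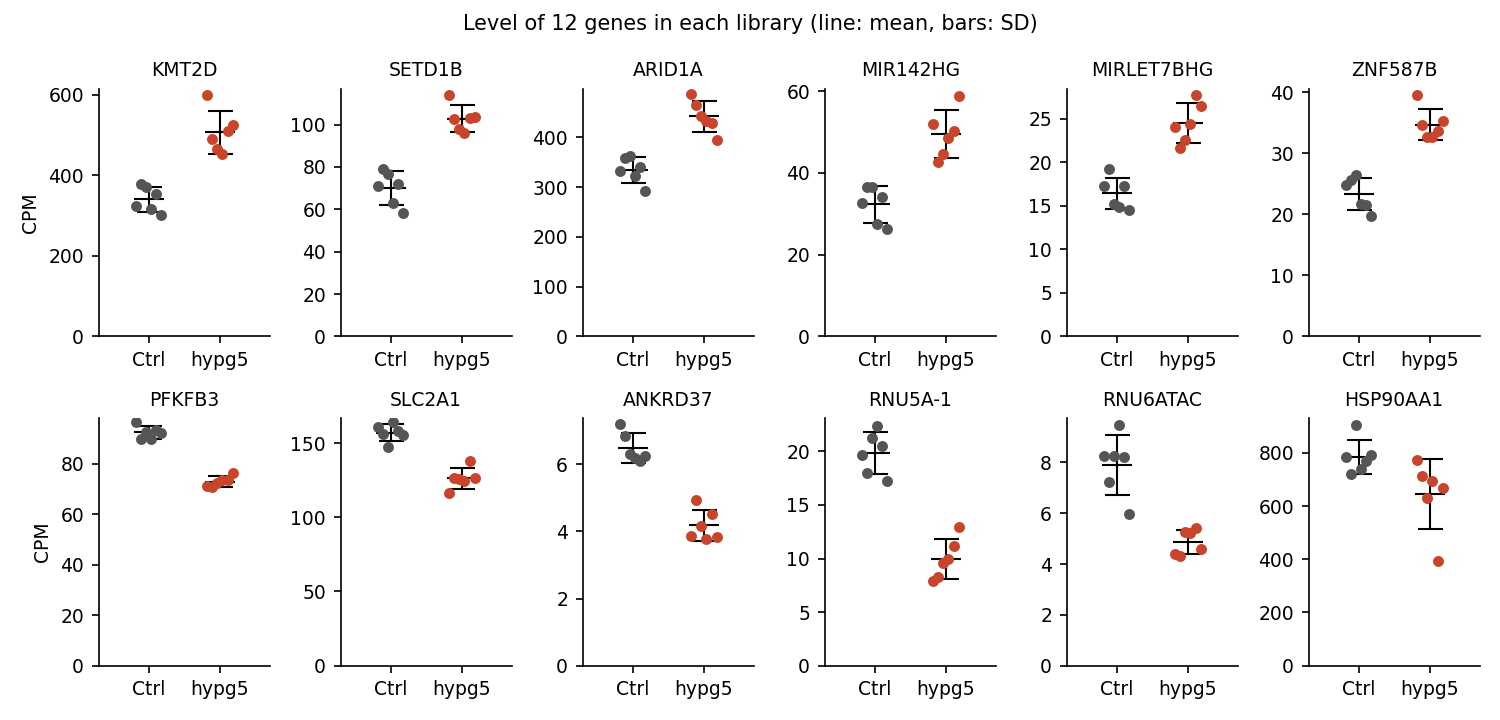
CPM of 12 genes in each of the 6 Ctrl and 6 hypg5 libraries (points), with the mean and SD of each group. Groups are separate for KMT2D, MIR142HG, ZNF587B, PFKFB3, SLC2A1 and RNU5A-1, and they overlap for HSP90AA1, where 1 hypg5 library lies at 395 CPM.

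Genes whose call rested on the treatment of GC content are illustrated by 3 in each direction. Called without correction only, WDR90 (log2 fold change 0.38 without and 0.28 with correction, corrected adjusted p = 0.112), GPC2 (0.35 and 0.28, 0.0885) and GIGYF1 (0.34 and 0.26, 0.0554) had GC contents of 59.7% to 63.8%. EBAG9 (−0.38 and −0.24, 0.105), ESD (−0.34 and −0.17, 0.212) and TBCA (−0.33 and −0.16, 0.366) had GC contents of 35.0% to 38.9%. Called with correction only, MIRLET7A1HG (0.27 and 0.41, corrected adjusted p = 0.007), ZNF264 (0.31 and 0.38, 0.0013) and AHSA2P (0.29 and 0.33, 0.0158) were upregulated. TAX1BP1 (−0.46 and −0.40, 0.03), SDAD1 (−0.42 and −0.39, 0.0123) and SNORD13 (−0.33 and −0.36, 0.012) were downregulated. All of the latter 6 had the same sign in both fits, and the standard error was smaller with the correction for each of them. Among them, MIRLET7A1HG had levels that differed between the ranges of library numbers. Leaving out single libraries ended the uncorrected calls of EBAG9 (any of 5 libraries, adjusted p from 0.0506 to 0.0779), WDR90 (any of 3, 0.0515 to 0.0591) and GPC2 (any of 3, 0.0516 to 0.0596), and the corrected call of TAX1BP1 (any of 6, 0.0506 to 0.0815).

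Set directly against the neighbouring time points, which needs no shared control, hypg5 differed from hypg75s (75 s at 9 g) in 17 genes, 0.104% of 16292 tested, with 10 (0.0614%) higher and 7 (0.043%) lower in hypg5. They included the histone acetyltransferase gene HAT1 (log2 fold change 0.61 ± 0.11, adjusted p = 0.0429) and AHDC1 (−0.27 ± 0.05, adjusted p = 0.0374). With the correction 30 (0.187%) were higher and 10 (0.0622%) lower. Against hypg3 (3 min), 2.49% of genes differed, with 346 (2.14%) higher and 57 (0.352%) lower in hypg5. With the correction 0.821% differed, 102 (0.639%) higher and 29 (0.182%) lower. Among the largest differences was that of the translation factor gene EIF3E, at 106 ± 28.3 CPM (SD, n = 6) in hypg5 and 60.2 ± 12.1 CPM in hypg3 (log2 fold change 0.80 ± 0.16, adjusted p = 0.0266). HSP90AA1 was higher in hypg5 by 0.76 ± 0.15 (adjusted p = 0.0263). Both kept their call with the correction (adjusted p = 0.0239 and 0.0344). The hypg75s libraries are numbered within 1 to 24 and those of hypg3 within 69 to 80, outside the range of hypg5, so for both comparisons the number range and the time point cannot be told apart.

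Against hypg7 (7 min), no gene was called with edgeR in either fit, 695 of 16345 genes (without) and 1012 of 16115 genes (with correction) had an unadjusted p under 0.05, the smallest adjusted p values were 0.841 and 0.641, and no other tool was run. RNU5A-1 averaged 9.97 CPM in hypg5 and 5.86 CPM in hypg7 (log2 fold change 0.78, adjusted p = 0.93), and MT-ND6 201 and 142 CPM (0.53, adjusted p = 0.841). KMT2D averaged 506 ± 52.8 CPM in hypg5 and 514 ± 69.4 CPM in hypg7, with a log2 fold change of 0.00 (adjusted p = 0.999).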

How the data were processed

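RNA was sequenced after ribosomal depletion from 6 hypg5 and 6 Ctrl libraries. The authors deposited read-pair counts per gene, made with Trim Galore 0.6.5, STAR 2.7.3a and featureCounts (2.0.1 in the submitters' processing notes, 2.0.3 in the file header) on the reverse strand against Ensembl 104 of GRCh38, and not normalized. The table also has gene lengths in another unit, bases, which the authors' program wrote. Of 60663 usable genes, 26693 had no count in the 12 libraries, and 1 broken record was left out. Read pairs carried no molecular identifiers, so they may repeat a molecule.

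Groups came from the sample titles. Counts were tested with edgeR 4.0.16 in R 4.3.3 (TMM factors, filterByExpr with a minimum count of 10, quasi-likelihood F test, Benjamini-Hochberg adjustment over all genes tested, called at an adjusted p under 0.05), with only the compared groups in the model. CPM are relative to total counts. The standard error was derived from the F statistic. For the GC correction, a lowess curve (span 0.3) of log2 CPM (prior count 2) against exon GC content (GENCODE 29, 58336 genes) was fitted per library, centred and used as an offset. Symbols were found for 60462 genes. DESeq2 1.42.0, sva 3.50.0 and limma 3.58.1 served for alternatives, which were other scalings, no filter on low counts, a length correction, all libraries in 1 fit, surrogate variables, leaving out the mitochondrial genome, and leaving out each library. Tables, permutation tests and figures were made in Python 3.11.15 (pandas 2.3.3, numpy 2.4.6, scipy 1.17.1, matplotlib 3.10.9). The testing scripts were tested on simulated data.

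The members and gene lists were chosen with earlier results of these data known, so lists are described by counts and medians and not tested. Genes were named by a rule. It takes the 10 largest changes in each direction among genes called by both fits whose groups did not overlap and whose mean reached 10 CPM, 3 in each direction called by 1 fit only, up to 3 called members per list and direction (or up to 2 of the highest level where none was called), and HSP90AA1 and GAPDH. Genes without a symbol were passed over. Further members of lists and the genes given for neighbouring time points were named after their values were seen. RNU5A-1 is outside the list of small nuclear RNAs. The spliced and unspliced transcriptomes were not used here. A few genes and sequences are not reported here.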

Additional observations from a re-analysis of the deposited data

Results flagged for a closer look

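Of 240 sets of 6 libraries examined (each named gene that is reported, in each group), 16 (6.67%) had a library far from the others by Dixon's criterion, which chance meets in about 1 of 20 sets. Library 3 of Ctrl accounted for 9 of them, library 29 of hypg5 for 4, library 25 of hypg5 for 2 and library 6 of Ctrl for 1. These include the libraries with the most extreme slopes against GC content, at −0.17 (library 3), 0.24 (library 29) and −0.15 (library 25) log2 units per 10% GC, and the part of GC content in these values was not tested gene by gene.

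In Ctrl, library 3 was the highest for ZCRB1 (27.35 CPM), IFI16 (151.96 CPM), ABRACL (43.15 CPM), DNAJA1 (212.57 CPM), ARHGAP15 (38.49 CPM), RPL31 (545.67 CPM), PSMA4 (130.02 CPM) and GBP1 (22.21 CPM), and the lowest for SNORD94 (4.67 CPM). Library 6 was the highest for MYL12A (95.67 CPM). In hypg5, library 29 was the lowest for TBCA (49.07 CPM), RPL31 (383.28 CPM) and HSP90AA1 (395.22 CPM) and the highest for POLR2A (1052.64 CPM), and library 25 was the highest for ZNF623 (31.2 CPM) and DAAM2-AS1 (18.9 CPM).

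The level in hypg5 differed from that in hypg3 by edgeR's test for 14 of the named genes. The log2 difference, hypg5 minus hypg3, was 0.43 for MT-ND6, −0.43 for RN7SKP203, 0.43 for TBCA, 0.48 for DNAJA1, 0.27 for CALM2, −0.15 for KIF18B, 0.41 for DDX10, 0.31 for RPL6, 0.27 for MRPL35, 0.47 for PSMA4, −0.24 for H3C2, 0.48 for SNHG5, −0.74 for MIF-AS1 and 0.76 for HSP90AA1. MIF-AS1 also differed from hypg75s, by −0.55. These calls come from the fit without the GC correction. With it, 3 of the 14 were called against hypg3 (DNAJA1, PSMA4 and HSP90AA1), 1 (H3C2) was not tested and the rest were not called, including MT-ND6 (adjusted p = 0.245) and MIF-AS1 (0.0722 against hypg3 and 0.0594 against hypg75s).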

How the results depend on the processing

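No paired analysis was possible because the library numbers are not shared between the groups. Without the GC correction, 3 surrogate variables gave 2241 upregulated and 3313 downregulated genes (40.4% upregulated, beside 71.9%), DESeq2 gave 529 downregulated (60.4% upregulated), the GC correction 1697 and the length correction 485 downregulated, no filter on low counts 409 and 156, and total counts 1120 upregulated. With the correction, no filter gave 490 and 709 and total counts 748 downregulated, and medians set to 0 gave 945 and 1176. Against hypg75s the correction gave 30 higher genes, and against hypg3 102 higher and 29 lower. Leaving out each library gave 390 to 1008 upregulated and 110 to 643 downregulated genes without, and 521 to 1018 and 1166 to 1730 with the correction. More than 1.5 times fewer genes were upregulated without Ctrl 4 (458), Ctrl 6 (390) or hypg5 27 (448), and with the correction without Ctrl 4 (521). More than 1.5 times fewer were downregulated without Ctrl 1 (149), 3 (163), 4 (137), 5 (165) or 6 (110) or hypg5 26 (175), 27 (139), 28 (171) or 30 (166), and more without hypg5 25 (643). No named gene that was called changed its direction under these alternatives. Of 129 named or printed genes called without the correction, 90 lost the call under at least 1 alternative and 46 on leaving out at least 1 library, and of 116 called with it, 32 and 19 did. In the fit of all 60 libraries without the correction, 53 named genes had a weaker result. When library 75 of hypg15, which lacks counts on several chromosomes, was left out of that fit, 13 did. Apart from fewer samples or other genes tested, the cause of the changes under the alternatives was not tested. The GC content of the gene span was not run. Genes below a few CPM are limited by depth.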
